A study of Homo sapiens with 12 samples.

Results

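The BCL2 family decides whether a stressed cell keeps its mitochondria intact. Here 10 of its genes were followed in SW1990 cells, a human line from a spleen metastasis of a pancreatic adenocarcinoma. The members were matched by gene name in the S371A table, which lists 58302 genes, and by the same gene identifier in the S55A table, which lists 50868. All 10 were found in both, and all 10 passed the filter on low counts in both. The pro-survival class has 3 genes (BCL2, BCL2L1 and MCL1) and the pro-death class has 7 (BAX, BAK1, BID, BCL2L11, BBC3, PMAIP1 and BIK).

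All cells had spent 24 h in medium without glucose, and RNA was sequenced from 12 libraries in 4 groups of 3. S371A cells carried rPHGDH with the serine-to-alanine substitution of that name and were set against WT-1 cells with wild-type rPHGDH. S55A cells carried rPHGDH with the substitution S55A, again serine to alanine, and were set against WT-2 cells, again with wild-type rPHGDH. PHGDH is the first enzyme of the serine synthesis pathway, and the series asks about an activity of it in the nucleus under nutrient stress. The labels explain neither the prefix r nor the promoter of the construct, and do not say whether the cells' own PHGDH was removed or whether a line is 1 clone. Each mutant has its own experiment and its own deposited table, so a difference between the mutants and a difference between the experiments cannot be told apart. Nothing in the labels ties replicates to separate cultures, so p-values reflect the spread of the libraries at hand, possibly only a technical one.

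In the mitochondrial pathway of apoptosis, BAX and BAK, the product of BAK1, are the effectors: once active they open the outer mitochondrial membrane and cytochrome c escapes. The pro-survival proteins BCL2, BCL-XL (from BCL2L1) and MCL1 hold them back. The remaining members are BH3-only proteins, which signal stress: BIM (from BCL2L11), PUMA (from BBC3) and NOXA (from PMAIP1) are induced by lost growth signals, DNA damage or the integrated stress response, BIK acts from the endoplasmic reticulum, and BID carries signals from death receptors. BCL-XL and MCL1 are well known survival proteins of pancreatic cancer cells.

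Total counts per library lay between 13667033 and 19240270. Levels are given in CPM, counts scaled to a library size adjusted by the TMM normalization factors of the test. Only the floor of 3 counts was scaled to the unadjusted total, where it corresponded to between 0.156 and 0.220 CPM. The other CPM values therefore differ slightly from counts scaled to that total. PHGDH, the targeted gene, was present in every group and lower in both mutants. It stood at 196, 183 and 224 CPM in S371A and at 470, 495 and 456 CPM in WT-1. The experiment 2 libraries had 364, 359 and 346 CPM in S55A and 738, 706 and 734 CPM in WT-2. In each comparison below, the mutation and this lower PHGDH level come together and cannot be told apart. The epithelial markers KRT8, KRT18, KRT19, EPCAM, CDH1 and SOX9 were high, while the mean levels of KRT7 and MUC1 were under 5 CPM in every group. The 8 epithelial markers summed to between 5994 and 6937 CPM in S371A, 5183 and 5619 CPM in WT-1, 4620 and 4929 CPM in S55A, and 3397 and 3682 CPM in WT-2. KRT18 and EPCAM rose in S371A, and KRT8, KRT18 and MUC1 rose and SOX9 fell in S55A. The 7 fibroblast markers summed to between 10.3 and 12.7 CPM in S371A, 21.5 and 23.9 CPM in WT-1, 14.98 and 26.9 CPM in S55A, and 9.64 and 19.0 CPM in WT-2, mostly PDGFRB, which fell in S371A and had a log2 fold change of -0.08 in S55A (edgeR adjusted p = 0.837). In experiment 2 the mean levels of 5 other fibroblast markers were higher in S55A than in WT-2, and none was called. COL1A1 averaged 3.13 CPM in S55A and 1.42 CPM in WT-2 (edgeR adjusted p = 0.121, under 0.05 unadjusted), and DCN 1.97 CPM in S55A and 0.690 CPM in WT-2 (edgeR adjusted p = 0.270). COL1A2 averaged 1.32 CPM in S55A and 0.287 CPM in WT-2, COL3A1 0.923 CPM in S55A and 0.228 CPM in WT-2, and LUM 0.672 CPM in S55A and 0.289 CPM in WT-2. The last 3 of these did not pass the filter on low counts, and DCN, COL1A2, COL3A1 and LUM were at 0 in all libraries of experiment 1. The 8 leukocyte markers summed to at most 1.86 CPM in any library and the 5 endothelial markers to at most 0.508 CPM, with CD3E, CD3D and KDR among those at 0 throughout. The 8 acinar and endocrine markers summed to between 5.31 and 8.14 CPM in S371A, 6.44 and 8.66 CPM in WT-1, 1.73 and 3.67 CPM in S55A, and 4.56 and 7.11 CPM in WT-2, nearly all of it PRSS1, which fell in S55A. The part of these shifts in the results below was not tested.

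Of the members whose mRNA changed past the threshold in S55A, BCL2 and BCL2L1 have an entry in the RefSeq promoter set used here. BIK changed past it too but has no entry in that set. The promoters of BCL2 and BCL2L1 are shown here (GRCh38.p14, from 250 bases before to 50 after each start, 5′ to 3′). Capitals mark matches to a set of 8 short motifs.
BCL2 (chr18:63319720-63320019, minus strand): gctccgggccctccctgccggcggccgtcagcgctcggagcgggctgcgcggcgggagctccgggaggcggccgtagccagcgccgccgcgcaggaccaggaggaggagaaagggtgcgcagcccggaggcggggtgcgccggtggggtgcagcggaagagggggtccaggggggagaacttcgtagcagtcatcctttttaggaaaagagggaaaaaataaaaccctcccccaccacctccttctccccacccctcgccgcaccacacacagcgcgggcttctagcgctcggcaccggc
BCL2L1, upstream start (chr20:31723914-31724213, minus strand): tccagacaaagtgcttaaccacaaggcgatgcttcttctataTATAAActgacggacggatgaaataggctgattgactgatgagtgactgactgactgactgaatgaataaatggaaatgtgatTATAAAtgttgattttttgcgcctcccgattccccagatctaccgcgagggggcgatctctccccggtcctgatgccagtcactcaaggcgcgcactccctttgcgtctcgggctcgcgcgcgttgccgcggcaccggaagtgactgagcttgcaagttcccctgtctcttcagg
BCL2L1, downstream start (chr20:31722819-31723118, minus strand): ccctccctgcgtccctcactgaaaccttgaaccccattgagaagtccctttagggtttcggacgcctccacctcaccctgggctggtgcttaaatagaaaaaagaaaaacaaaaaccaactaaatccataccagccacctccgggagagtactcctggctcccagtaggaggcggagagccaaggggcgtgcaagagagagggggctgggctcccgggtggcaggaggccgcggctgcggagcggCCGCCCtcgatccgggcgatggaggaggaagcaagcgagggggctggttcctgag
The motifs were searched on both strands: TGANTCA (AP-1), the interferon-stimulated response element, TTTCGCGC (E2F), GGGCGG (GC box), CCAAT, TGACGTCA (cAMP response element), TATAAA and CACGTG (E-box). The BCL2 window held none of them, is 70.7% G and C, and lies inside the annotated gene, whose 5′ end is at 63320128. The upstream BCL2L1 window held TATAAA at positions -208 and -125 from its start, and the downstream window held 1 GC box, printed on its other strand as CCGCCC. Of all 35116 promoters of this length in that RefSeq promoter set, 11.5% held TATAAA, 45% the GC box and 7.71% the AP-1 motif. A match is a description of these letters only.

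BCL2, a pro-survival gene, fell in S55A cells to 0.359 times its level in WT-2 cells, while the pro-death gene BIK rose to 1.66 times and the pro-survival gene BCL2L1 to 1.22 times theirs. In S371A cells the pro-survival genes BCL2L1 and MCL1 rose to 1.20 and 1.19 times their level in WT-1 cells. None of the 7 pro-death members passed there by edgeR or DESeq2, and 2 of them, BAX and BAK1, had an unadjusted edgeR p under 0.05. Of the 10 members, 2 were called in S371A, both higher, by edgeR's quasi-likelihood test (Benjamini-Hochberg adjusted p under 0.05 over all genes tested), where 12.6% of all 16235 tested genes were called, 7.05% higher and 5.53% lower. In S55A 3 were called, 2 higher and 1 lower, where 16% of all 15521 tested genes were called, 8.97% higher and 7.06% lower. At an unadjusted p under 0.05, 4 members passed in each experiment, where 29.4% of all tested genes did in S371A and 32% in S55A. Read against those background shares, counts of 2 and 3 among 10 genes are not a result about the family as a whole. The median log2 fold change of the members was 0.10 in S371A and 0.12 in S55A, beside -0.01 over all genes tested in each.

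**Figure D1:**
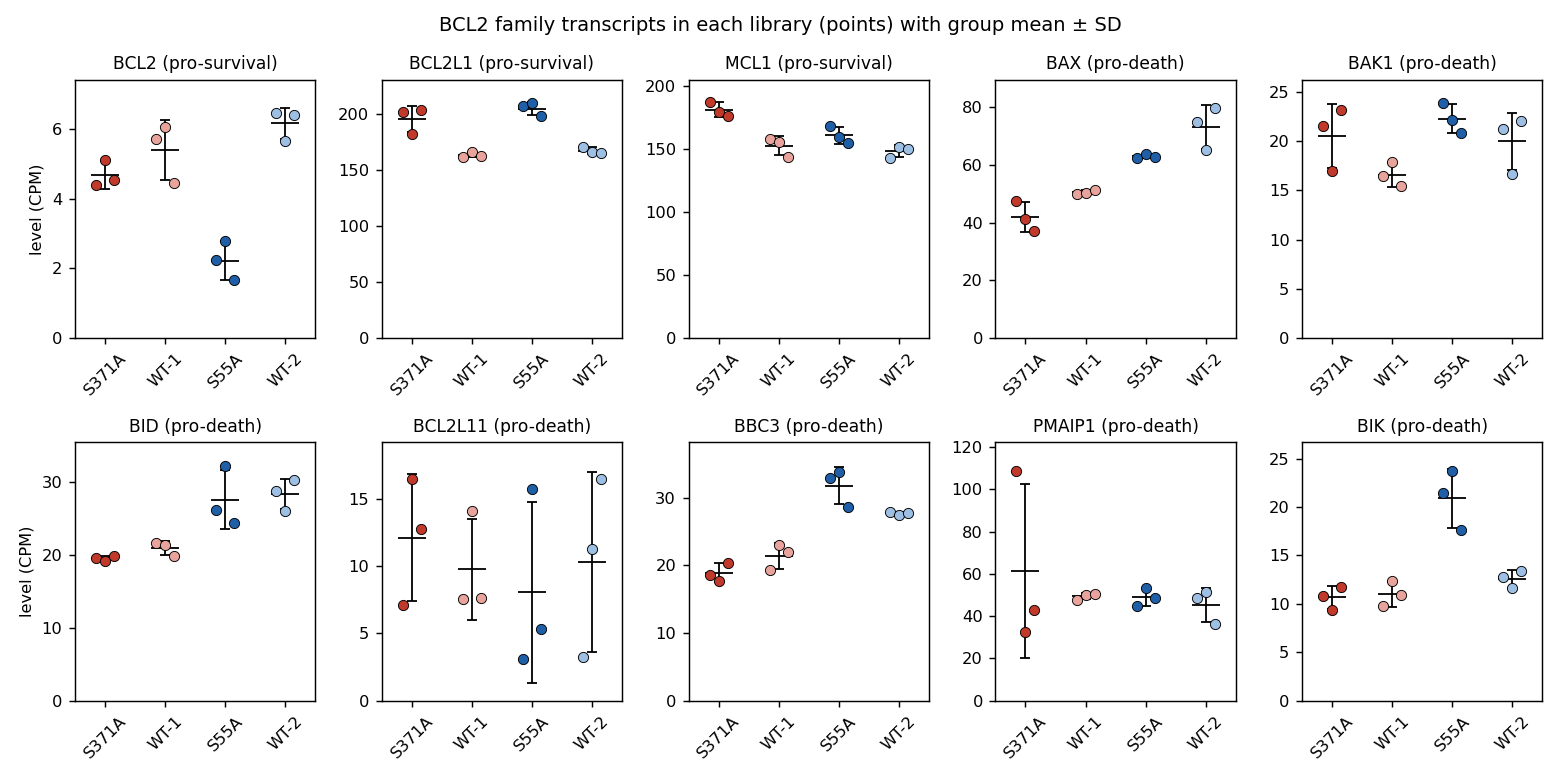
Level of each member in CPM (vertical axis, starting at 0, own scale per panel) in each library (points) of S371A, WT-1, S55A and WT-2, with group mean and SD bars (n = 3). BCL2 in S55A, between 1.65 and 2.78 CPM, lies below all WT-2 libraries, and PMAIP1 in S371A and BCL2L11 in every group spread widely.

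BCL2, the founding pro-survival gene (chromosome 18, 63123346 to 63320128, GRCh38, minus strand), was measured at low depth. Its level was 2.23, 2.78 and 1.65 CPM in S55A, from 40, 51 and 32 counts, against 6.47, 5.66 and 6.40 CPM in WT-2, from 115, 78 and 108 counts. Every S55A library was below every WT-2 library. The log2 fold change was -1.48 ± 0.21 (SE; edgeR adjusted p = 0.00333). In bulk RNA, a lower level in every cell and fewer cells that carry the transcript cannot be told apart. In experiment 1 the gene stood at 4.39, 5.13 and 4.54 CPM in S371A and 5.72, 6.06 and 4.45 CPM in WT-1. Those ranges overlapped, because WT-1 replicate 3 was as low as the S371A libraries, and the log2 fold change of -0.20 had a 95% interval from -0.56 to 0.15 (edgeR adjusted p = 0.426). The test of the difference, S371A effect minus S55A effect, gave 1.28 ± 0.26 on the log2 scale (edgeR adjusted p = 0.00838).

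BCL2L1, which encodes BCL-XL (chromosome 20, 31664452 to 31723989, minus strand), rose in both experiments. It reached 201, 182 and 203 CPM in S371A, against 162, 166 and 162 CPM in WT-1. The level in experiment 2 was 207, 209 and 198 CPM in S55A, against 170, 166 and 165 CPM in WT-2. All mutant libraries were above all wild-type libraries of their own experiment, and the wild-type libraries were tightly grouped. The log2 fold changes were 0.26 ± 0.05 in S371A (edgeR adjusted p = 0.0223) and 0.29 ± 0.06 in S55A (edgeR adjusted p = 0.0107). Their difference, -0.03, had a 95% interval from -0.18 to 0.13 (edgeR adjusted p = 0.853). The S371A call was lost (edgeR adjusted p from 0.0570 to 0.0763) without S371A replicate 1 or 3 or without any single WT-1 library, whereas the S55A call stayed under all 14 alternatives. Of the exonic bases of BCL2L1, 43.0% lie opposite the antisense gene ABALON. The sources used here do not say whether strand was used in counting, so reads of both cannot be told apart there. ABALON itself was assigned between 8 and 18 counts per library in experiment 1 and at most 2 in experiment 2, against at least 2288 for BCL2L1.

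MCL1, a short-lived pro-survival protein (chromosome 1, 150574551 to 150579738, minus strand), rose in S371A. It stood at 187, 179 and 176 CPM in S371A, against 157, 156 and 143 CPM in WT-1, with no overlap. The log2 fold change was 0.25 ± 0.05 (edgeR adjusted p = 0.0242), and it missed the threshold without S371A replicate 1 or 2 or any single WT-1 library (adjusted p from 0.0510 to 0.0722) and on FPKM with a pseudocount of 0.1. In experiment 2 it stood at 168, 159 and 155 CPM in S55A and 143, 151 and 150 CPM in WT-2. These groups did not overlap either, but the log2 fold change of 0.12 had a 95% interval from -0.02 to 0.26 (edgeR adjusted p = 0.214). The difference of the effects, 0.13 with an interval from -0.03 to 0.30, was not called (edgeR adjusted p = 0.307).

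**Figure D2:**
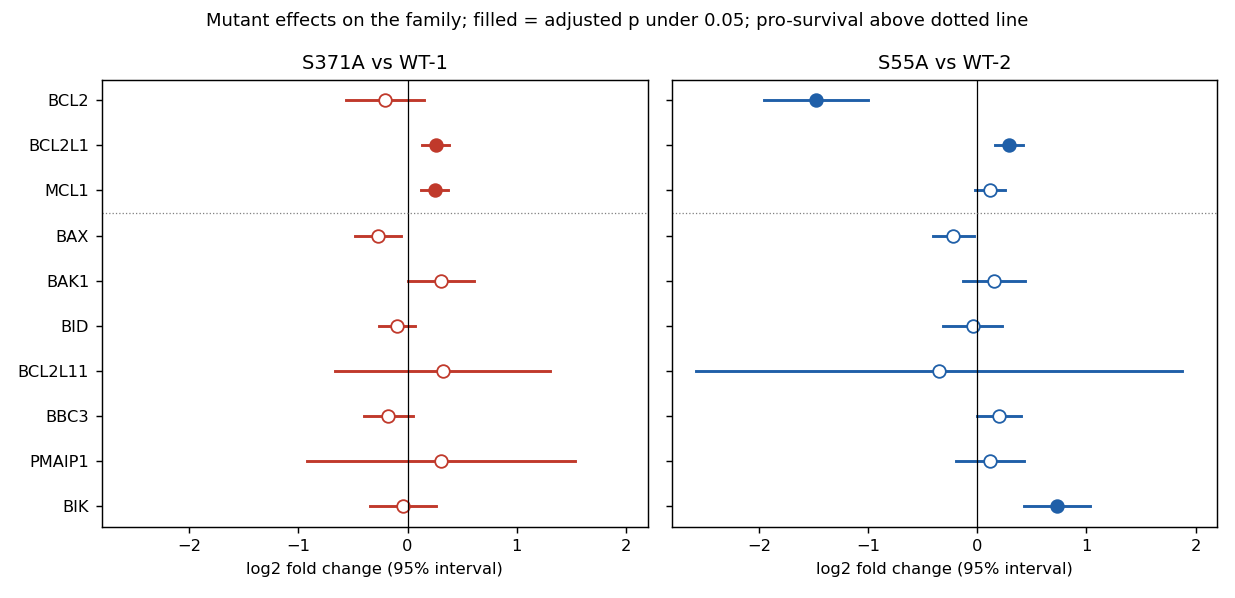
Log2 fold change of each member (horizontal axis) with its 95% interval, S371A against WT-1 on the left and S55A against WT-2 on the right; filled points have an edgeR adjusted p under 0.05, and the pro-survival genes are above the dotted line. BCL2 at -1.48 and BIK at 0.73 in S55A lie farthest from 0 among the called members, and the widest interval is that of PMAIP1 in S371A and of BCL2L11 in S55A.

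The effectors did not pass the threshold. BAX (chromosome 19, 48954815 to 48961798, plus strand) stood at 47.5, 41.3 and 37.0 CPM in S371A, against 49.97, 50.3 and 51.4 CPM in WT-1. BAX in experiment 2 stood at 62.4, 63.7 and 62.8 CPM in S55A, against 74.8, 65.0 and 79.8 CPM in WT-2. In both experiments every mutant library was below every wild-type library, which was also so for 18.3% of tested genes in S371A and 18.7% in S55A. The log2 fold changes were -0.27 ± 0.09 (edgeR adjusted p = 0.0992) and -0.22 ± 0.08 (edgeR adjusted p = 0.112). A single library decided each call: BAX passed in S371A without S371A replicate 1 (log2 fold change -0.37, edgeR adjusted p = 0.0307) and in S55A without WT-2 replicate 2 (-0.29, edgeR adjusted p = 0.0345).

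BAK1 (chromosome 6, 33572547 to 33580293, minus strand) stood at 21.5, 16.9 and 23.2 CPM in S371A and 16.4, 17.9 and 15.4 CPM in WT-1. BAK1 in experiment 2 stood at 23.9, 22.1 and 20.9 CPM in S55A and 21.2, 16.7 and 22.1 CPM in WT-2. The groups overlapped in both experiments, through S371A replicate 2 and through the 2 higher WT-2 libraries. The log2 fold changes of 0.31 (95% interval 0.005 to 0.61, edgeR adjusted p = 0.165) and 0.15 (interval -0.13 to 0.44, adjusted p = 0.434) were not called. Of the 50-base windows of BAK1 transcripts, 12.3% also occur in its processed copy BAK1P1, which was assigned between 8 and 25 counts per library. How reads that match both were counted is not given in the sources used here, so the size of any error in the BAK1 values is not known.

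BIK was the only pro-death member called. This BH3-only gene (chromosome 22, 43110748 to 43129712, plus strand) reached 21.4, 23.7 and 17.6 CPM in S55A, against 12.7, 11.6 and 13.4 CPM in WT-2, with no overlap. The log2 fold change was 0.73 ± 0.13 (edgeR adjusted p = 0.00862). In experiment 1 it stood at 10.8, 9.39 and 11.8 CPM in S371A and 9.75, 12.4 and 10.9 CPM in WT-1. There the ranges overlapped, and the log2 fold change of -0.04 had a 95% interval from -0.35 to 0.26 (edgeR adjusted p = 0.866). The difference of the effects was -0.77 ± 0.19 (edgeR adjusted p = 0.0220), which missed the threshold without S371A replicate 2 or WT-1 replicate 2 (adjusted p from 0.0528 to 0.0549).

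BBC3, which encodes PUMA (chromosome 19, 47220822 to 47232766, minus strand), had log2 fold changes of opposite sign, and neither passed. It stood at 18.6, 17.7 and 20.4 CPM in S371A and 19.3, 22.9 and 21.95 CPM in WT-1. BBC3 in experiment 2 stood at 32.9, 33.8 and 28.6 CPM in S55A and 27.9, 27.4 and 27.7 CPM in WT-2. The groups overlapped in experiment 1, and all S55A libraries were above the closely grouped WT-2 libraries, as for 19.5% of tested genes. The log2 fold changes were -0.18 ± 0.10 (edgeR adjusted p = 0.270) and 0.20 ± 0.09 (edgeR adjusted p = 0.161). Their difference, -0.37 ± 0.13, had an edgeR adjusted p of 0.0829, and of 0.0319 without S55A replicate 3, the lowest S55A library.

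PMAIP1, the NOXA gene (chromosome 18, 59899948 to 59904306, plus strand), was set apart by 1 library. It stood at 109, 32.6 and 42.9 CPM in S371A and 47.8, 50.02 and 50.6 CPM in WT-1. The highest and the lowest of these 6 values were both S371A libraries. The log2 fold change of 0.31 had a 95% interval from -0.92 to 1.53 (edgeR adjusted p = 0.728), and it became -0.39 (adjusted p = 0.101) without S371A replicate 1. In experiment 2 the gene stood at 44.6, 53.4 and 48.8 CPM in S55A and 48.4, 51.3 and 36.1 CPM in WT-2, and these ranges overlapped (log2 fold change 0.11, edgeR adjusted p = 0.617).

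BCL2L11, the BIM gene (chromosome 2, 111119378 to 111168447, plus strand), varied within every group. It stood at 7.08, 16.5 and 12.8 CPM in S371A and 7.58, 14.1 and 7.63 CPM in WT-1. In experiment 2 it stood at 3.12, 15.7 and 5.32 CPM in S55A and 3.21, 11.2 and 16.5 CPM in WT-2. Each group held a library above 14 CPM and a library under 8 CPM. The highest value was 2.33 times the lowest in S371A, 1.86 times in WT-1, 5.03 times in S55A and 5.13 times in WT-2. Among genes whose mean level was 5 CPM or more, ratios as large were found for 2.26%, 3.78%, 0.191% and 0.330% of genes in these groups. The log2 fold changes of 0.32 (95% interval -0.66 to 1.31) in S371A and -0.35 (interval -2.57 to 1.87) in S55A were not called (edgeR adjusted p = 0.648 and 0.822), and in S55A effects of several fold in either direction were not detectable at this spread. Its exons lie opposite MIR4435-2HG over 10.9% of their bases. That opposite gene was assigned 111, 147 and 144 counts in S371A and 78, 85 and 76 in WT-1. In experiment 2 it was assigned 122, 137 and 123 counts in S55A and 150, 96 and 98 in WT-2. Whether its reads enter the BCL2L11 values was not tested.

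BID, which carries the death receptor signal to mitochondria (chromosome 22, 17734138 to 17774770, minus strand), was not called in either experiment. It stood at 19.5, 19.2 and 19.9 CPM in S371A and 21.6, 21.3 and 19.8 CPM in WT-1. BID in experiment 2 stood at 26.2, 32.2 and 24.4 CPM in S55A and 28.8, 26.1 and 30.3 CPM in WT-2. The ranges overlapped in both experiments. The 95% intervals of its log2 fold change ran from -0.26 to 0.07 in S371A and from -0.31 to 0.23 in S55A (edgeR adjusted p = 0.410 and 0.849).

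For both mutants side by side, 1 pro-survival gene, BCL2L1, was called in each experiment and in the same direction. Its S371A call was lost under 6 of 14 alternatives. The share of all genes called in both experiments in the same direction was not computed, so this is not a result about the family. The difference of the mutant effects was called for 2 of the 10 members, BCL2 and BIK, where 12.5% of all 16666 genes in that fit were called, 6.43% with a higher and 6.1% with a lower S371A effect. For the other 8 the difference did not pass (edgeR adjusted p from 0.0829 to 0.868), and BCL2L11 and PMAIP1 had intervals more than 2 log2 units wide. Ranges without overlap were seen for 3 members in S371A (36.5% of all tested genes) and for 6 in S55A (38.2%).

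To compare levels between genes, CPM was divided by the length of the merged exons of each gene in GENCODE 29, in kilobases. On this scale BCL2L1 was the most abundant member and MCL1 the next in all 4 groups, and BCL2 was the least abundant in all 4. On the deposited FPKM BCL2L1 was also first and BCL2 last in all 4 groups. In S55A, however, BIK came second there with 20.9% of the family's summed FPKM, ahead of MCL1 with 16.1%. The places between the first and the last therefore depend on the length scale. BCL2L1 had 59.0 ± 3.5 CPM per kb in S371A, 49.3 ± 0.71 in WT-1, 61.7 ± 1.8 in S55A and 50.4 ± 0.90 in WT-2 (SD, n = 3 each). MCL1 had 41.3 ± 1.4 CPM per kb in S371A, 34.8 ± 1.7 in WT-1, 36.8 ± 1.5 in S55A and 33.8 ± 1.1 in WT-2. BCL2 had 0.398 ± 0.033 CPM per kb in S371A, 0.460 ± 0.073 in WT-1, 0.189 ± 0.048 in S55A and 0.525 ± 0.038 in WT-2. BCL2 therefore supplied under 0.31% of the summed level of the family in each group, and the called member with the largest fold change was the one with the least transcript.

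**Figure D3:**
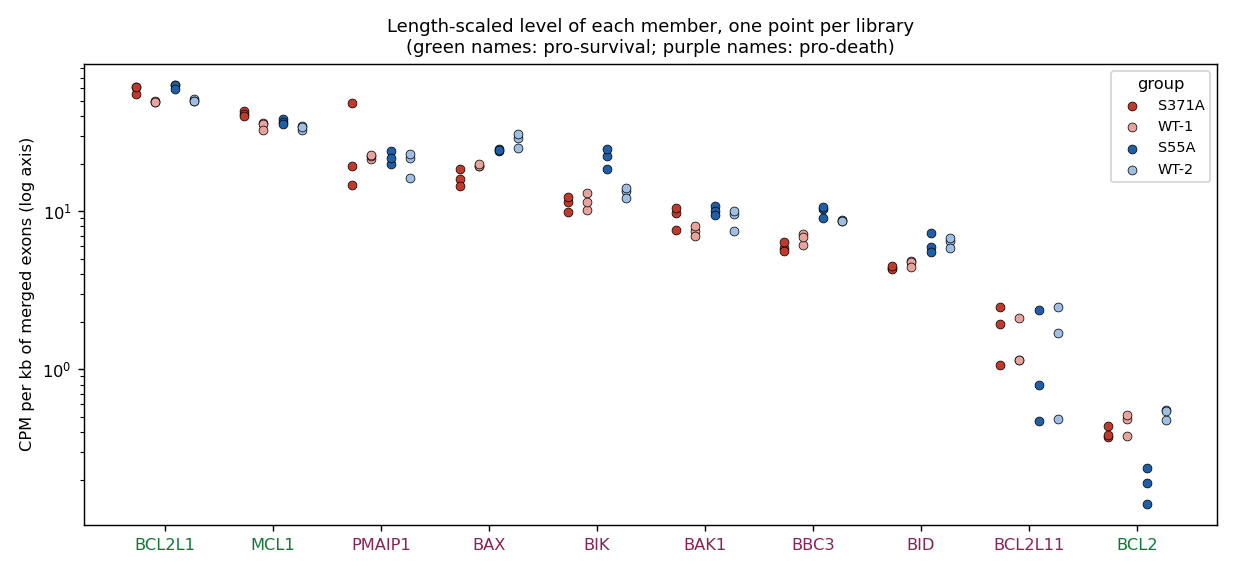
Level of each member in CPM per kb of merged exons (log axis), 1 point per library, grouped as S371A, WT-1, S55A and WT-2 within each gene. BCL2L1 and MCL1 lie at the top in all groups and BCL2 at the bottom, where the S55A libraries are the lowest points.

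Among the pro-death genes, PMAIP1, BAX and BIK came next. In S371A and WT-1 the order of group means was PMAIP1, BAX, BIK, BAK1, BBC3, BID and BCL2L11, and in WT-2 BAX and PMAIP1 changed places. In S55A BIK followed BCL2L1, MCL1 and BAX, at 21.9 ± 3.2 CPM per kb against 13.2 ± 0.95 in WT-2, level with PMAIP1 at 21.9 ± 2.0 and close to BAX at 24.3 ± 0.24. The neighbours BAK1 and BBC3 did not differ beyond their spread in S55A or WT-2. PMAIP1 and BAX did not do so in S371A either, where PMAIP1 had an SD of 18.5 CPM per kb.

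The summed pro-survival level was 101 ± 3.9 CPM per kb in S371A and 84.5 ± 2.1 in WT-1, and 98.7 ± 3.1 in S55A and 84.8 ± 0.31 in WT-2. The summed pro-death level was 76.3 ± 20.5 CPM per kb in S371A and 73.6 ± 3.3 in WT-1, and 95.7 ± 7.2 in S55A and 87.4 ± 3.0 in WT-2. The pro-survival sum thus stood above the wild-type range in every mutant library, and so did the pro-death sum in every S55A library, the closest at 89.3 CPM per kb in S55A and 89.2 in WT-2. The pro-death sum of S371A spanned the WT-1 range. The ratio of the sums was 1.05, 1.59 and 1.47 in S371A and 1.21, 1.12 and 1.12 in WT-1. It was 1.07, 0.963 and 1.07 in S55A and 0.948, 1.01 and 0.949 in WT-2. These ranges overlapped in both experiments. Without PMAIP1, an alternative chosen after the values were seen, the ratio was 2.06 ± 0.03 in S371A and 1.65 ± 0.08 in WT-1, with no overlap, and 1.34 ± 0.08 in S55A and 1.27 ± 0.12 in WT-2. On the deposited FPKM the ratio was 1.09 ± 0.22 in S371A and 0.921 ± 0.051 in WT-1, and 0.782 ± 0.052 in S55A and 0.791 ± 0.030 in WT-2, so the order of the S55A and WT-2 means depends on the length scale. These sums describe transcripts only and carry no test.

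BIK rose and BCL2 fell in S55A. Their ratio in each library was taken after these calls were seen, so it restates them and carries no test. BIK per BCL2 was 119, 105 and 132 in S55A, against 24.3, 25.3 and 25.8 in WT-2. In experiment 1 it was 30.5, 22.6 and 31.99 in S371A and 21.02, 25.2 and 30.2 in WT-1. The S55A libraries thus lie far above the other 9, which share a common range.

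**Figure D4:**
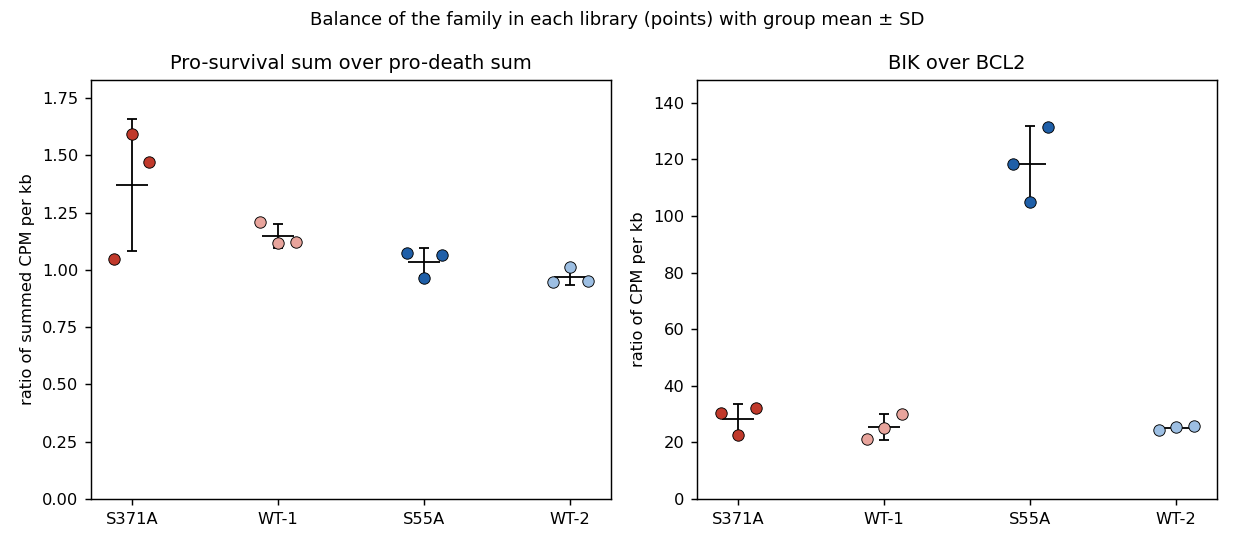
Left, the ratio of summed pro-survival to summed pro-death CPM per kb; right, BIK over BCL2 in CPM per kb; points are libraries of S371A, WT-1, S55A and WT-2, bars the mean ± SD (n = 3). BIK over BCL2 lies between 105 and 132 in S55A and between 21.02 and 31.99 in all other libraries.

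Other genes of the pathway were taken from lists chosen with earlier results of these data known, and their counts stand beside 12.6% of all tested genes called in S371A and 16% in S55A. Of 10 tested further BCL2-related genes, 1 was called in S371A, lower, and 1 in S55A, higher (2 and 4 at an unadjusted edgeR p under 0.05). The gene that fell was BCL2L14, at 9.39 ± 0.73 CPM in S371A and 15.1 ± 1.7 in WT-1 (SD, n = 3 each; log2 fold change -0.68 ± 0.12, edgeR adjusted p = 0.0136). The gene that rose was BCL2L13, a mitochondrial membrane protein with BCL2 homology, at 161 ± 8.3 CPM in S55A and 122 ± 15.1 in WT-2 (0.40 ± 0.09, edgeR adjusted p = 0.0229). BCL2A1, BCL2L10, HRK and BNIP3 did not pass the filter in either experiment. The median log2 fold changes of the list were 0.02 in S371A and 0.11 in S55A. BCL2L13 missed the threshold without S55A replicate 1 or 2 or WT-2 replicate 1 or 3 (edgeR adjusted p from 0.0581 to 0.0779), and BCL2L14 stayed called without any single library.

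Downstream, of 17 genes of the mitochondrial machinery, 2 rose and 1 fell in S371A, and 1 rose and 2 fell in S55A (medians 0.03 and 0.04). APAF1, the scaffold of the apoptosome, rose in both: it stood at 44.9 ± 6.2 CPM in S371A and 30.8 ± 1.8 in WT-1 (log2 fold change 0.54 ± 0.11, edgeR adjusted p = 0.0221), and at 44.3 ± 1.3 CPM in S55A and 33.8 ± 1.1 in WT-2 (0.39 ± 0.07, edgeR adjusted p = 0.0101). BIRC3, an inhibitor of apoptosis protein and a known NF-kB target, rose in S371A, at 22.9 ± 5.6 CPM there and 9.31 ± 0.90 in WT-1 (1.3 ± 0.20, edgeR adjusted p = 0.0103). HTRA2, a mitochondrial protease released in apoptosis, fell in S371A by 0.30 on the log2 scale (edgeR adjusted p = 0.0356). In S55A the genes that fell were CYCS, which encodes cytochrome c (142 ± 7.9 CPM in S55A and 185 ± 21.96 in WT-2, log2 fold change -0.38 ± 0.09, edgeR adjusted p = 0.0258), and VDAC2, a channel of the outer membrane that binds BAK (-0.30 ± 0.08, edgeR adjusted p = 0.0375). The rise of APAF1 in S55A and that of BIRC3 stayed past the threshold without any single library. The rise of APAF1 in S371A missed it without S371A replicate 1 or 3 or WT-1 replicate 2 or 3 (edgeR adjusted p from 0.0595 to 0.0764), and HTRA2 without any single library of its experiment (0.0524 to 0.110). CYCS missed it without S55A replicate 2 or 3 or WT-2 replicate 1 (edgeR adjusted p from 0.0587 to 0.0870), and VDAC2 without any single library other than S55A replicate 3 (0.0792 to 0.117).

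In the death receptor arm that leads to BID, 1 of 11 genes was called in S371A and 3 in S55A, all higher (medians 0.23 and 0.19), where 7.05% and 8.97% of all tested genes were called higher. None was lower by edgeR or DESeq2, also at an unadjusted edgeR p under 0.05. RIPK1, a kinase of the receptor complex, stood at 87.1 ± 1.5 CPM in S371A and 70.0 ± 1.9 in WT-1 (log2 fold change 0.31 ± 0.04, edgeR adjusted p = 0.00688). In S55A the genes that rose were TNFSF10, the TRAIL ligand, at only 0.866 ± 0.16 CPM against 0.267 ± 0.13 in WT-2 (1.66 ± 0.43, edgeR adjusted p = 0.0332), the adaptor FADD (0.34 ± 0.09, edgeR adjusted p = 0.0380) and CASP10 (0.65 ± 0.15, edgeR adjusted p = 0.0198). CASP8, which cleaves BID, was not called, with log2 fold changes of -0.03 in S371A and -0.01 in S55A. RIPK1 stayed called without any single library. TNFSF10 missed the threshold without S55A replicate 1 or 2 or WT-2 replicate 1 or 2 (edgeR adjusted p from 0.0827 to 0.115), FADD without any single library other than S55A replicate 3 (0.0707 to 0.119), and CASP10 without S55A replicate 1 or WT-2 replicate 1 or 3 (0.0617 to 0.0714).

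Upstream, transcription regulators known to act on BH3-only genes had 5 of 14 tested genes called in S371A, all higher, and 4 higher and 1 lower in S55A (medians 0.20 and 0.27). Over all tested genes, 7.05% were called higher in S371A, and 8.97% higher and 7.06% lower in S55A. The list was chosen with results known, so its counts are a description. At an unadjusted edgeR p under 0.05, 6 were higher and 1 lower in S371A, and 9 higher and 2 lower in S55A. Of all tested genes, 29.4% in S371A and 32% in S55A passed at that level. By DESeq2, 5 were higher and 1 lower in S371A, and 5 higher and 2 lower in S55A. Among the genes called by edgeR in S371A, EGR1 (log2 fold change 1.22 ± 0.04, edgeR adjusted p = 1.6e-05), JUN (0.99 ± 0.05, adjusted p = 0.000123), TP73 (0.66 ± 0.15, adjusted p = 0.0360) and NFKB1 (0.29 ± 0.06, adjusted p = 0.0192) rose. In S55A FOXO1, a factor known to induce BIM, stood at 35.9 ± 1.3 CPM, against 20.4 ± 2.2 in WT-2 (0.82 ± 0.10, edgeR adjusted p = 0.0017). TP73 (0.63 ± 0.18, edgeR adjusted p = 0.0442), TRIB3 (0.35 ± 0.06, adjusted p = 0.00693) and JUN (0.28 ± 0.07, adjusted p = 0.0345) rose there too. E2F1, the cell cycle factor, fell in S55A, at 29.1 ± 1.2 CPM against 40.8 ± 0.77 in WT-2 (-0.49 ± 0.07, edgeR adjusted p = 0.00452). DDIT3, the CHOP factor of the stress response, was not called in either, at 145 ± 13.1 CPM in S371A and 144 ± 16.5 in WT-1, and 170 ± 10.4 in S55A and 146 ± 15.6 in WT-2. Its log2 fold change in S55A was 0.22 (edgeR adjusted p = 0.127, under 0.05 unadjusted). EGR1 and JUN in S371A and FOXO1, TRIB3 and E2F1 in S55A stayed called without any single library. In S371A TP73 missed the threshold without any single library other than S371A replicate 3 (edgeR adjusted p from 0.0558 to 0.114) and NFKB1 without S371A replicate 2 or 3 or WT-1 replicate 2 or 3 (0.0545 to 0.0639). In S55A JUN missed it without any single library (edgeR adjusted p from 0.0551 to 0.101), and TP73 without any other than S55A replicate 1 (0.0852 to 0.132).

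A list of target genes of the DNA damage response, other than family members, went both ways. Of 12, 3 rose (CDKN1A, GDF15 and SESN2) and 2 fell (FDXR and ZMAT3) in S371A, and 2 rose (GDF15 and SESN2) and 1 fell (CDKN1A) in S55A. CDKN1A, the p21 cell cycle inhibitor, stood at 241 ± 16.4 CPM in S371A and 197 ± 7.1 in WT-1 (log2 fold change 0.28 ± 0.06, edgeR adjusted p = 0.0246), and at 229 ± 8.3 CPM in S55A and 296 ± 2.6 in WT-2 (-0.37 ± 0.05, edgeR adjusted p = 0.00404). GDF15, a stress cytokine, rose by 0.76 ± 0.07 in S371A (edgeR adjusted p = 0.00143) and by 0.28 ± 0.06 in S55A (edgeR adjusted p = 0.0232). The medians of the list were 0.03 and -0.04. In S371A SESN2 missed the threshold without any single library (edgeR adjusted p from 0.0570 to 0.0876), and CDKN1A and FDXR without any other than S371A replicate 2 (0.0514 to 0.0833 and 0.0638 to 0.0828). In S55A GDF15 missed it without S55A replicate 1 or 2 or WT-2 replicate 1 (edgeR adjusted p from 0.0544 to 0.0808). Of the ubiquitin ligases and the deubiquitinase that set MCL1 protein turnover, 4 were tested and 0 were called in either experiment by edgeR or DESeq2, also at an unadjusted edgeR p under 0.05. HUWE1, a ligase of MCL1, stood at 1017 ± 16.5 CPM in S371A and 1015 ± 12.7 in WT-1.

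**Figure D5:**
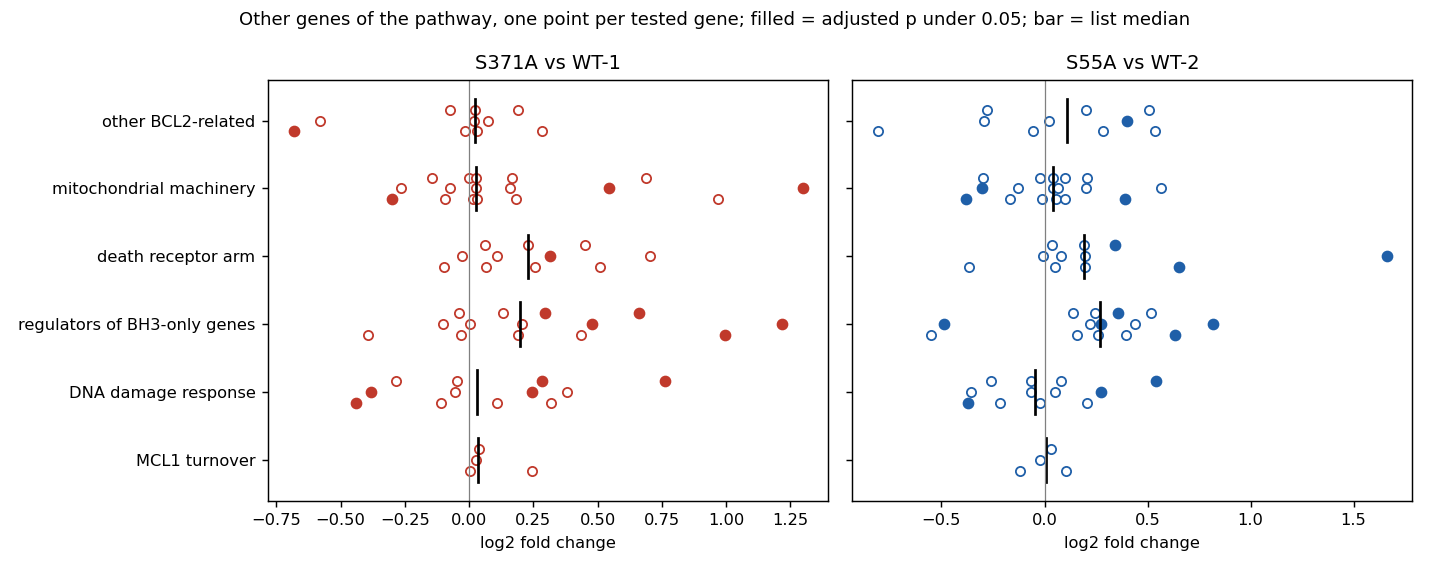
Log2 fold change (horizontal axis) of each tested gene of 6 pathway lists, S371A against WT-1 on the left and S55A against WT-2 on the right; filled points have an edgeR adjusted p under 0.05 and vertical bars are list medians. In both panels most points of every list are open, and the medians lie between -0.04 and 0.27.

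The genes whose pattern was most like that of BCL2 were sought over the 12 libraries, as the correlation of log2 CPM after each experiment's mean was removed, among 11401 genes whose mean level was 5 CPM or more. They were ELOVL6, a fatty acid elongase (r = 0.988), PASK, a kinase with a PAS domain (r = 0.964), and MND1, a meiotic recombination gene (r = 0.960). For BIK they were SLC31A1, a copper transporter (r = 0.968), VILL, a villin-like gene (r = 0.963), and MYH14, a non-muscle myosin (r = 0.955). The 12 points share their libraries and their 4 groups, so these values largely follow the step between S55A and WT-2 and are a description.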

How the data were processed

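The deposited files are 2 tables, 1 per experiment, each with counts and FPKM for 6 libraries of SW1990 cells kept 24 h without glucose. The counts are the authors' whole-number counts per gene. Deposited FPKM is each count divided by the library total and by a gene length that equals the sum of all distinct GENCODE 29 exons within 1% for 96.17% of 11652 genes of the S371A table and 92.32% of 10991 of the S55A table. That sum counts overlapping exons more than once (median 1.542 and 1.558 times the merged exons), so levels were compared between genes as CPM per kb of merged exons. The submitters' processing notes list the builds mm10 and GRCh38 and the tools edgeR, StringTie 1.3.0, HISAT2 2.0.4 and CASAVA, without roles. The member coordinates are those of GRCh38 in both tables. How reads were counted, and whether by strand, is not given in the sources used here. The labels' treatment text speaks of a microarray, but the files hold counts.

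The test was that of edgeR 4.0.16 under R 4.3.3 (filterByExpr, TMM factors, robust quasi-likelihood F test, Benjamini-Hochberg adjustment over all genes tested, threshold 0.05), S371A against WT-1 and S55A against WT-2. The difference of the effects was fitted over all 12 libraries on genes found in both tables. Standard errors were derived from the F statistic. Column numbers were read as replicate numbers. Intervals and count floors cover counting error or library spread only. Replicates differed beyond counting noise (chi-square per degree of freedom from 8.67 to 15.6), so none was counted as a copy. Same-numbered libraries did not deviate together (correlations from -0.0851 to -0.0029), so replicate numbers were not treated as pairs. Other settings tried were upper quartile and RLE factors, a filter of 1 CPM in 3 libraries or none, DESeq2 1.42.0, a block for the replicate number, limma 3.58.1 on log2 of FPKM plus 1 or 0.1, and each library left out. The fits were tested on simulated data, where the share of false calls was above the nominal one in both 2-group fits, and the limits this test had to meet were loosened after its first result was seen; the fits were left as they were. Promoter sequences are from a RefSeq promoter set, and the set used here held entries for 8 of the 10 members, without BIK and MCL1. All members and the called genes of 6 pathway lists are named, except that some genes of the lists, counted there, are not reported here. The members and lists were chosen with earlier results of these data known.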

Additional observations from a re-analysis of the deposited data

Results flagged for a closer look

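The S371A effect differed from the S55A effect past the threshold (edgeR quasi-likelihood test of the difference, Benjamini-Hochberg adjusted over 16666 genes) for 2 members and 9 pathway genes. In that fit 12.5% of all genes were called. There were 10 members, and the pathway lists held 10, 17, 11, 14, 12 and 4 tested genes. Read against that share, the counts of 2 and 9 are not a result about the family or the lists. Among the members, the difference on the log2 scale was 1.28 for BCL2, which fell in S55A and was not called in S371A, and -0.77 for BIK, which rose in S55A and was not called in S371A. Among the other genes, it was -1.19 for BCL2L14, which fell in S371A and had a log2 fold change of 0.51 in S55A (adjusted p = 0.0575). CDKN1A rose in S371A and fell in S55A, with a difference of 0.66. Both EGR1, with a difference of 0.78, and JUN, with 0.72, had the larger log2 fold change in S371A, as did GDF15 with 0.49 and RIPK1 with 0.24. E2F1, with 0.62, fell in S55A. FOXO1, with -0.62, rose in S55A, and ZMAT3, with -0.64, fell in S371A. The RIPK1 difference is the least firm, and it was lost when any of 10 single libraries was left out (adjusted p from 0.0746 to 0.139), with upper quartile factors (0.0538), with no filter (0.138) and with the replicate number as a block (0.148). Each mutant belongs to its own experiment, so these differences and those between experiments cannot be told apart, and PHGDH was lower in both mutants.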

How the results depend on the processing

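In S55A, BCL2, BCL2L1 and BIK were called in all 14 alternatives, and the BCL2 difference in all 18. With log2 of FPKM plus 1, BCL2 in S55A had a log2 fold change of -0.28, since that pseudocount exceeds its FPKM. With the replicate number as a block, S371A had 784 called genes and 0 members, S55A 1632 genes, and the difference 1098 genes and 1 member (BCL2), and the PMAIP1 difference turned to -0.0064. The labels do not say whether replicate numbers pair the libraries, and same-numbered libraries did not deviate together. On FPKM plus 0.1, S371A had 1 called member, BCL2L1. Pathway genes lost calls too. With the block these were HTRA2, TP73, NFKB1 and SESN2 in S371A, and CYCS, VDAC2, TNFSF10, FADD, JUN and GDF15 in S55A. On FPKM with either pseudocount they were HTRA2 and TP73 in S371A, and VDAC2 and TP73 in S55A. In S55A CASP10 was also lost on FPKM plus 0.1, and TP73 with upper quartile factors (edgeR adjusted p = 0.0504).

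Leaving out each library gave 917 to 1576 genes and 0 to 1 members in S371A (no member without WT-1 replicate 1, 2 or 3), 1344 to 2491 genes and 3 to 4 members in S55A, and 1407 to 2257 genes and 1 to 3 members for the difference. Log2 fold changes that changed sign when 1 library was left out belonged to members that were not called in that comparison. In S371A they ran from -0.39 to 0.61 for PMAIP1 and from -0.12 to 0.048 for BIK. In S55A they ran from -1.27 to 0.18 for BCL2L11, from -0.16 to 0.043 for BID and from -0.023 to 0.21 for PMAIP1. For the difference they ran from -0.51 to 0.49 for PMAIP1, from -0.069 to 0.0072 for BCL2L1, from -0.16 to 0.037 for BAX and from -0.15 to 0.060 for BID. The cause was not tested.

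The split of called genes in S371A was 1144 higher and 898 lower, against 990 and 1078 with upper quartile factors, 945 and 1038 with no filter and 930 and 974 on FPKM plus 1. In S55A it was 1392 and 1096, against 1221 and 1258 with upper quartile factors and 1102 and 1056 on FPKM plus 1. The member calls named above were the same under these settings. Without BIK, an alternative added later, the ratio of summed pro-survival to pro-death levels was 1.63 in S371A and 1.36 in WT-1, with overlap, and 1.34 in S55A and 1.14 in WT-2, where the ranges no longer overlapped. Depth limits BCL2 most, with 32 to 51 counts in S55A.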

Other observations

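BCL2L2, the gene of the pro-survival protein BCL-w, was not called in either experiment, with 4.41 ± 0.41 CPM in S371A and 3.89 ± 1.8 in WT-1 (SD, n = 3 each), and 25.6 ± 14.5 CPM in S55A and 45.03 ± 30.8 in WT-2. The tables were made separately, so the levels of experiment 1 and experiment 2 were not tested against each other. In the same way MYC, a regulator of BH3-only genes, stood at 105 ± 16.5 CPM in S371A and 138 ± 6.3 in WT-1, and at 10.2 ± 1.9 CPM in S55A and 7.72 ± 2.7 in WT-2, and was not called within either experiment (edgeR adjusted p = 0.0771 and 0.372). XIAP, an inhibitor of apoptosis protein, had an SD of 41.7 CPM around a mean of 51.4 CPM in S371A, against 26.3 ± 1.8 CPM in WT-1, and CFLAR, a brake on death receptor signalling, 70.2 ± 21.8 CPM in S371A and 43.1 ± 15.5 in WT-1. Neither was called (edgeR adjusted p = 0.350 and 0.245). These 4 genes were chosen after their values were seen.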
